A study of Mus musculus with 10 samples.

Results

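The genes described here are the subunits of the integrins and the chains of the laminins. They were chosen by name alone, as the genes whose symbol is that of an integrin alpha or beta subunit or of a laminin alpha, beta or gamma chain, which gave 37 of the 21959 genes in the table. There were 18 integrin alpha subunits, 8 integrin beta subunits and 11 laminin chains. Their mRNA was measured by RNA sequencing of bulk tumor tissue from 10 mice, with 1 library per tumor. Each mouse was a female BALB/c animal of 5 to 6 weeks that had 4T1 cells, a mammary carcinoma line of the mouse that stands in for the triple-negative type of the disease, injected under the skin of the abdomen. In the exercise group (E, 5 tumors) the mice ran voluntarily for 21 days with no set speed or distance, and in the non-exercise group (NE, 5 tumors) they were kept under normal husbandry. No running distance per mouse was used here, every tumor came from a single cell line, and a bulk tumor holds the cells of the host as well as the injected cells.

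Integrins are receptors made of 1 alpha and 1 beta subunit, and they hold a cell to its surroundings while passing signals in both directions across the membrane. Which alpha and beta subunits pair decides what is bound. Receptors with the beta subunit Itgb2 are made by leukocytes and bind ligands on other cells, receptors that pair Itgb1 or Itgav with their partners bind fibronectin, collagen or vitronectin, and the pair of Itga6 with Itgb4 anchors epithelial cells in hemidesmosomes. Laminins are the main adhesive proteins of basement membranes. Each laminin is a trimer of 1 alpha, 1 beta and 1 gamma chain, and several integrins, such as those of Itga3, Itga6 and Itga7, are laminin receptors.

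Total counts per tumor were between 15045613 and 20646763 in the exercise group and between 18706032 and 23092251 in the non-exercise group, so the exercise libraries were on the whole shallower. Counts scaled to library size (CPM), corrected by the trimmed mean of M-values (TMM), gave the cell type marker sums below. Skeletal muscle markers summed to 308 to 4232 CPM in the exercise tumors and to 6.15 to 30307 CPM in the non-exercise tumors, where NE4 was the highest. Fibroblast markers summed to 2177 to 15363 CPM and 965 to 4932 CPM, with E5 the highest and NE1 the lowest. Pan-leukocyte markers summed to 612 to 909 CPM and 340.0 to 902 CPM, with NE1 the lowest. E5, NE1 and NE4 therefore stood apart on these lists, and some of the results that rest on them are also given without them. In bulk tissue, fewer cells of a type and less RNA per cell cannot be told apart. The label of a mammary carcinoma was checked against epithelial genes. Krt8 was at 0 to 0.618 FPKM, which are read fragments scaled to gene length and library size, Krt18 at 0.0603 to 1.46 and Epcam at 0.244 to 1.41, while the mesenchymal filament gene Vim was at 635 to 953. The epithelial genes Krt19, at 4.59 to 12.6 FPKM, and Cdh1, the gene of E-cadherin, at 1.42 to 4.44 FPKM, were detected in every tumor, and these and Vim were looked up after the values of the list had been seen. Of the 7 epithelial or keratinocyte markers, 2 passed the filter on low counts, and Krt14 at 30.3 FPKM and Krt5 at 13.0 FPKM stood out in NE5 alone. These markers summed to 99.0 CPM in NE5 and to at most 9.16 CPM in any other tumor, so NE5 stood apart on this list. Most markers of the list fixed for epithelial cells were thus low, but epithelial transcripts were not absent, and the epithelial integrins below are a class by receptor type.

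The members spanned a wide range in FPKM, a measure per length that allows genes to be compared. Itgb1, the beta subunit shared by most matrix receptors, was the highest with a mean of 331 over the 10 tumors and made up 71.4% of the summed FPKM of the matrix-binding class. Itgb7, Lamc1, Itgb2, Lamb1 and Itgb5 followed at 80.0, 72.4, 68.9, 67.6 and 60.6 FPKM, and the ranges of these 5 genes overlapped across tumors. Itga3 at 39.4 and Itga5 at 29.1 were the highest alpha subunits. The lowest were Lama3 at 0.112 and Itgad at 0.0226, and Itgad with at most 6 reads in any tumor was the only member that did not pass the filter on low counts.

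**Figure D1:**
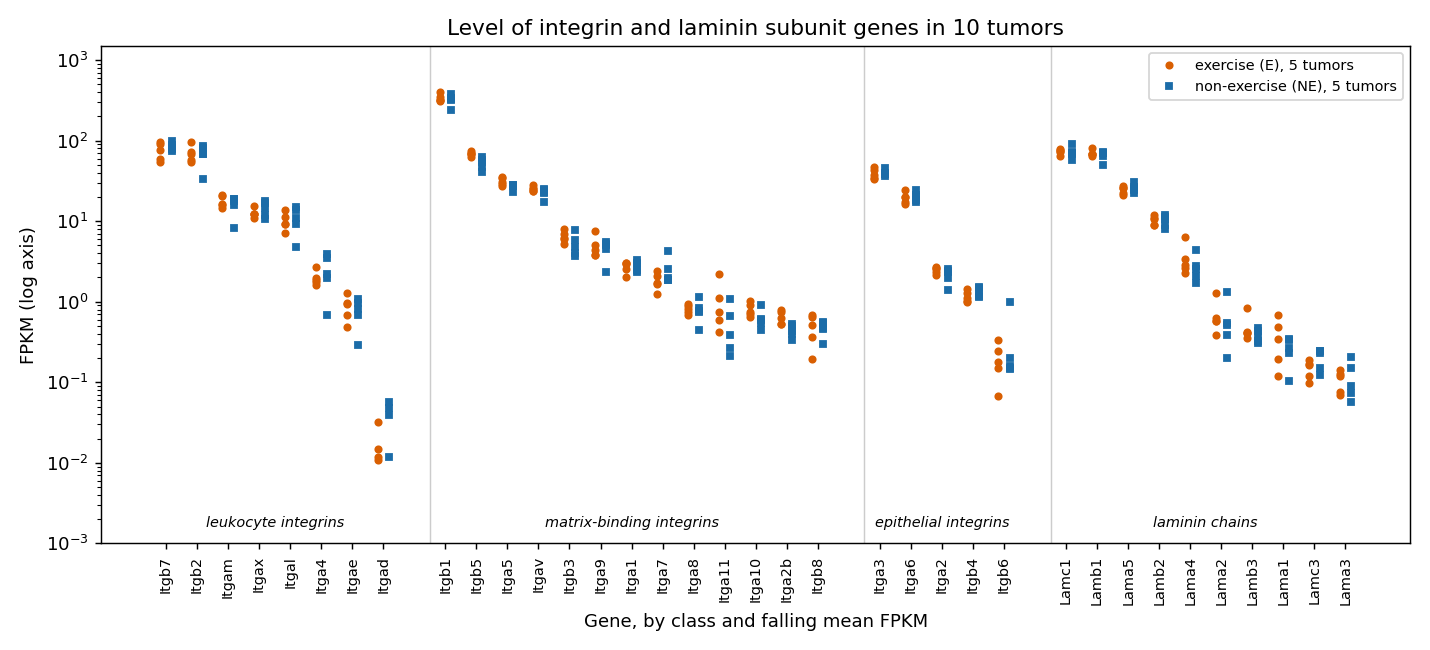
FPKM on a log axis of 36 subunit genes, by class and by falling mean, with 1 point per tumor (circles, 5 exercise tumors; squares, 5 non-exercise tumors). Values of 0, which occurred for Itgad alone, cannot be drawn on a log axis and are left out. The genes within a class differ far more from each other than the groups do, and Itgb1 stands above all others with a mean of 331 FPKM.

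The summed level of a class was similar in both groups relative to the spread between tumors. The 13 matrix-binding integrins summed to 485 ± 38.1 FPKM in the exercise group and 441 ± 60.9 in the non-exercise group (mean ± SD, n = 5 each). The 8 leukocyte integrins summed to 189 ± 35.2 and 197 ± 37.0, the 5 epithelial integrins to 62.5 ± 8.23 and 63.7 ± 3.24, and the 11 laminin chains to 184 ± 10.7 and 178 ± 21.9 (SD, n = 5 each). Itgb7 made up 41.5% of the leukocyte sum, and that class too is one of receptor type and not a count of leukocytes. In each class the difference between the group means was smaller than the larger of the SDs.

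The comparison of exercise with non-exercise tumors asks which subunits differ with voluntary running. With the thresholds stated in the study's methods, a fold change of at least 2 at a false discovery rate (FDR) of at most 0.05, edgeR's quasi-likelihood test called none of the 36 members tested and 0% of the 13517 genes tested, and the smallest FDR of any gene was 0.897. DESeq2 and limma-voom also called 0 members. At an unadjusted p of at most 0.05, a threshold that 657 of all genes or 4.86% passed, 4 of the 36 members or 11.1% passed. Among them were Itgb5, Itga5 and Itga2b, all higher in the exercise tumors, each with an FDR of 0.897. The groups did not overlap for 2 members, Itgb5 among them, or 5.56%, against 0.725% of all genes. The median log2 fold change was 0.02 over the members and -0.01 over all genes, with 20 members above 0 and 16 below it.

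By class, the medians lay on both sides of 0. The matrix-binding integrins had a median log2 fold change of 0.15 with 11 genes above 0 and 2 below it, and 3 of the 13 were at an unadjusted p of at most 0.05. The leukocyte integrins had a median of -0.12 with 3 above 0 and 4 below it, and the epithelial integrins a median of -0.08 with 1 above 0 and 4 below it, and in neither class was any gene at an unadjusted p of at most 0.05. The laminin chains had a median of -0.0027 with 5 above 0 and 6 below it. Differences between the classes were not tested. Adding the total count as a covariate moved the median of the matrix-binding class to 0.05.

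**Figure D2:**
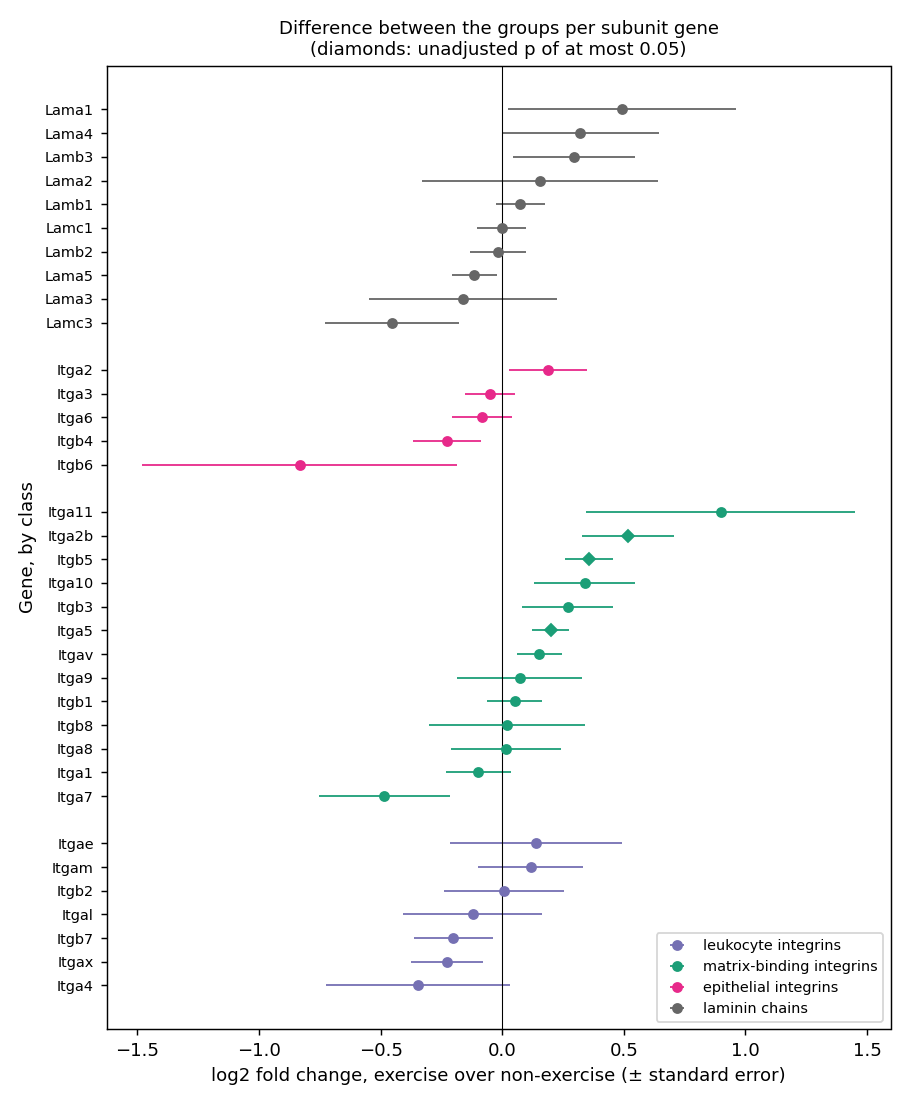
Log2 fold change of exercise over non-exercise with its standard error, from edgeR, for the members shown, grouped by class. Diamonds mark the 3 matrix-binding genes at an unadjusted p of at most 0.05, Itgb5, Itga5 and Itga2b, which lie to the right of 0. No gene passed the FDR threshold.

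The upstream sequences of the 3 matrix-binding genes with the smallest p, Itgb5, Itga5 and Itga2b, and of Itgam, whose level followed Itgb2 across tumors, are shown as those of the genes the results turn on. Of the 37 members 23 had a promoter entry in RefSeq. Each line gives the 250 bases before the start that RefSeq annotates, 5′ to 3′ on the gene's strand, in GRCm38.p6. For Itga2b GENCODE places the gene at 102453297 to 102470122, so most of the printed stretch lies inside the gene by that annotation. For Itgb5 (chr16:33829415-33829664, plus strand) and Itga5 (chr15:103366792-103367041, minus strand) the capitals mark GGGCGG on either strand, the core of the GC box that Sp1-type factors bind. For Itga2b (chr11:102469884-102470133, minus strand) and Itgam (chr7:128062390-128062639, plus strand) the capitals mark GAGGAA on either strand, a core bound by Ets factors such as PU.1.
Itgb5: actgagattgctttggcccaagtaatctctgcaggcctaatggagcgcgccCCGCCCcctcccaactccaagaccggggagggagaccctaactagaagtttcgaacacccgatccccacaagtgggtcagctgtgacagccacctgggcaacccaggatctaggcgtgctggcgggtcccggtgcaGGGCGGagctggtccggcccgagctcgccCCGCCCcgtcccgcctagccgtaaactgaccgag
Itga5: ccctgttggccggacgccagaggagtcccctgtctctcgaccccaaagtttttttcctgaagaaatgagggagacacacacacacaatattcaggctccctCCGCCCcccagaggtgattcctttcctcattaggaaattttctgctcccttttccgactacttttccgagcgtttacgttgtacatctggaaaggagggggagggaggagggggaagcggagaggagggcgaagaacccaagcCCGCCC
Itga2b: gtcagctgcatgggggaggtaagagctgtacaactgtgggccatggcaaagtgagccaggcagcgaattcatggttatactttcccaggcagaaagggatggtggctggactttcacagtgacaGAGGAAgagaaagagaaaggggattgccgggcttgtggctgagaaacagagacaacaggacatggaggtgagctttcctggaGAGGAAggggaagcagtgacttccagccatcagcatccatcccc
Itgam: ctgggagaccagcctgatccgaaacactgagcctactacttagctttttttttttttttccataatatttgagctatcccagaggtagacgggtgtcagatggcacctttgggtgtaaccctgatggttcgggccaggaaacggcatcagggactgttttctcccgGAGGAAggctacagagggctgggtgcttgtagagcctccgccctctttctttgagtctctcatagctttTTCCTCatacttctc

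Itgb5 held 3 copies of GGGCGG and Itga5 held 2, while Itga2b and Itgam held 2 copies of GAGGAA each. Itga5 also held 1 copy of GAGGAA and Itgam 1 copy of GGGCGG, both left in lower case, and no copy of either motif overlapped one of the other. Over the members with an entry, GGGCGG was found in 8 of 23 and in 32.7% of all 32851 promoters. GAGGAA was found in 13 of 23 and in 23.3% of all promoters. TATAAA, the letters of the TATA box, was found in 0 of 23 and in 12.4% of all promoters. These are matches of letters in a window and not binding sites, and the motifs were picked after the sequences had been seen.

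Among the matrix-binding integrins, Itgb5 had the smallest p of all members. Itgb5 is the beta subunit that pairs with Itgav in a vitronectin receptor, and it lies on chromosome 16 at 33829665 to 33949338 (GRCm38, plus strand). Its FPKM was 62.2, 67.7, 69.2, 70.5 and 73.5 in tumors E1 to E5 and 62.4, 57.5, 47.4, 40.9 and 54.5 in NE1 to NE5. All exercise tumors but E1 lay above every non-exercise tumor, and on the TMM-scaled CPM, where E1 was also above NE1, the groups did not overlap. The means were 68.6 ± 4.18 and 52.5 ± 8.51 FPKM (SD, n = 5), with a log2 fold change of 0.36 ± 0.10 (SE, edgeR quasi-likelihood test, unadjusted p = 0.00395, FDR 0.897). The exact permutation test over the tumors on mean log2(FPKM + 1) gave p = 0.0159 (two-sided), where the smallest p that 252 assignments allow is 0.00794. The difference had the same sign in all 22 alternative settings, with a range of 0.27 to 0.43. With the total count as a covariate it was 0.27 at an unadjusted p of 0.0508, and as the exercise libraries were shallower, depth and group cannot be fully told apart. Without E5, NE1 and NE4 it was 0.33 at an unadjusted p of 0.00388. Of its 50-base stretches, 7.25% were shared with another annotated gene, Gm38317.

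Itga5, the alpha subunit of the fibronectin receptor, was at 34.7, 30.3, 29.1, 27.6 and 35.1 FPKM in E1 to E5 and at 28.0, 27.4, 27.2, 23.1 and 28.1 in NE1 to NE5. E1 and E5 were the highest, NE4 stood below the rest, and E4 lay within the non-exercise range. Its log2 fold change was 0.20 ± 0.08 (SE, unadjusted p = 0.0246 and FDR 0.897 by edgeR), and Itga5 was higher in the exercise tumor in 23 of 25 pairings of FPKM. Leaving out the 3 tumors that stood apart gave 0.13 at an unadjusted p of 0.136, and the total count as a covariate gave 0.14 at 0.170.

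Itga2b, the alpha subunit of the fibrinogen receptor of platelets and megakaryocytes, was far lower, at 0.533, 0.629, 0.525, 0.801 and 0.743 FPKM in E1 to E5 and 0.429, 0.529, 0.339, 0.400 and 0.506 in NE1 to NE5. The ranges overlapped only in that NE2 exceeded E3. These values rest on 42 to 81 reads per tumor. The log2 fold change was 0.52 ± 0.19 (SE, unadjusted p = 0.0203 and FDR 0.897 by edgeR), and it was 0.43 at an unadjusted p of 0.125 without the 3 tumors that stood apart, and 0.25 at 0.261 with the total count as a covariate. Platelet markers summed to 25.3 to 71.8 CPM in the exercise tumors and 18.2 to 27.8 CPM in the non-exercise tumors. Of the 7 platelet markers 3 passed the filter, with Pf4 at 20.0 to 92.7 FPKM, Gp9 at 0 to 0.0983 FPKM and Gp1bb at 0 in every tumor. The score of platelet markers and Itga2b gave Pearson's r = 0.640 and Spearman's rho = 0.612 (permutation test, adjusted p = 0.128 and 0.206 over 53 relations). Without E4 and E5, r was 0.0688. Whether platelets account for the Itga2b values was not tested.

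**Figure D3:**
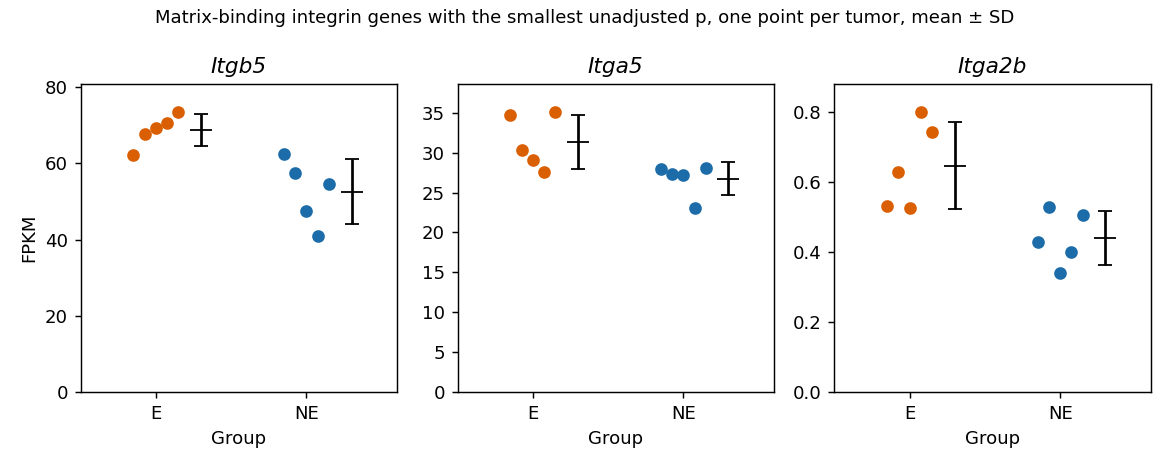
FPKM of Itgb5, Itga5 and Itga2b with 1 point per tumor and the mean ± SD of each group (E, exercise, 5 tumors; NE, non-exercise, 5 tumors), on linear axes from 0. For Itgb5 the means are 68.6 and 52.5 FPKM, and the ranges of the groups overlap in every panel.

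Itgb1 did not differ beyond the spread between tumors. Its FPKM was 309, 316, 399.9, 351 and 323 in E1 to E5 and 331, 339, 319, 242 and 377 in NE1 to NE5, with E3 the highest and NE4 the lowest. The log2 fold change was 0.05 ± 0.11 (SE, FDR 0.951 by edgeR), and its sign turned when E3 or NE4 was left out. Itga11, a collagen receptor subunit of fibroblasts, had the highest log2 fold change of the members, 0.90 ± 0.55 (SE), but also one of the widest ranges, 10.4-fold over the tumors. It was at 0.595, 0.753, 0.416, 1.11 and 2.23 FPKM in E1 to E5 and at 0.270, 0.385, 0.214, 1.09 and 0.665 in NE1 to NE5. E5 and E4 were high and so was NE4, and the groups overlapped. The log2 fold change of Itga11 was 0.40 without E5, 1.38 at an unadjusted p of 0.0241 without NE4 and 0.75 without E5, NE1 and NE4, and with the total count as a covariate it was -0.049. Across the 10 tumors Itga11 followed the score of fibroblast markers (Pearson's r = 0.877, Spearman's rho = 0.915, permutation test, adjusted p = 0.00888 and 0.00869 over 53 relations), and r was 0.852 without E5 and NE1.

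The other matrix-binding subunits were not at the unadjusted threshold. Itgav, the alpha subunit of the vitronectin receptors, was at 25.4 ± 1.81 FPKM in the exercise group and 22.4 ± 3.08 in the non-exercise group (SD, n = 5), with a log2 fold change of 0.15 ± 0.09 (SE). Itgb3, its partner in endothelial and myeloid cells, was at 6.43 ± 1.02 and 5.24 ± 1.65 FPKM, and Itgb8, a partner that takes part in releasing active TGF-beta, at 0.481 ± 0.204 and 0.467 ± 0.105 (SD, n = 5). Itga7, the laminin receptor subunit of muscle, was at 1.82 ± 0.447 and 2.48 ± 1.01 FPKM (SD, n = 5), with NE4, the tumor with the most muscle marker RNA, at 4.21. The collagen receptor subunits Itga1 and Itga10 averaged 2.70 and 2.82 FPKM and 0.802 and 0.621 FPKM, exercise given before non-exercise, and Itga8 and Itga9, which bind nephronectin and tenascin among others, averaged 0.817 and 0.789 and 4.92 and 4.55. A stretch-by-stretch comparison found 30.6% of Itga10 shared with Gm42957, an overlapping gene on the same strand, so the reads of Itga10 are less certain than those of its class.

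Of the leukocyte integrins, Itgb7 had the highest FPKM. Itgb7 pairs with Itga4 or Itgae in lymphocyte homing and retention receptors, and it was at 97.5, 90.2, 59.3, 76.3 and 53.6 FPKM in E1 to E5 and 81.7, 74.7, 89.3, 97.7 and 79.4 in NE1 to NE5. The exercise tumors covered the wider range, with the lowest values in E3 and E5, and the log2 fold change was -0.20 ± 0.16 (SE, FDR 0.897 by edgeR) and -0.022 without E5, NE1 and NE4. Itgb2, the beta subunit of the leukocyte family proper, was at 96.8, 68.5, 54.7, 57.7 and 72.7 FPKM in E1 to E5 and 33.8, 67.5, 81.8, 86.2 and 69.2 in NE1 to NE5. NE1, the tumor lowest in leukocyte markers, was the lowest for Itgb2 but not for Itgb7. The log2 fold change of Itgb2 was 0.01 ± 0.25 (SE), and it was -0.15 without NE1.

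Of the alpha partners of Itgb2, Itgal and Itgam shared the low value of NE1, with Itgal at 4.77 FPKM there. Itgax in NE1 was close to E4, and Itgad, on at most 6 reads in any tumor, was highest in NE1. Itgam, which forms the complement receptor of macrophages and neutrophils, was at 21.1, 15.9, 14.7, 16.6 and 20.7 FPKM in E1 to E5 and 8.20, 16.1, 17.8, 18.8 and 18.9 in NE1 to NE5. NE1 stood far below all others, and the log2 fold change of 0.12 ± 0.22 (SE) changed to -0.04 without it. Itgax, best known from dendritic cells and some macrophages, was at 12.1, 12.5, 12.2, 10.8 and 15.6 FPKM in E1 to E5 and 10.6, 16.8, 17.97, 12.1 and 14.8 in NE1 to NE5. NE2 and NE3 were the highest and NE1 the lowest, with a log2 fold change of -0.23 ± 0.15 (SE, FDR 0.897 by edgeR). For Itgax the unadjusted p was 0.154 by edgeR, and 4 of 22 alternative settings gave one of at most 0.05. Log2 fold changes there were -0.31 at 0.0293 without NE1 and -0.49 at 0.000271 without E5, NE1 and NE4. They were -0.42 at 0.031 with the total count as a covariate and -0.40 at 0.00396 with limma-voom. The weakest value was -0.14 at 0.356, without NE3. Itgal, the lymphocyte function-associated subunit that binds Icam1, was at 10.1 ± 2.52 FPKM in the exercise group and 10.7 ± 4.00 in the non-exercise group (SD, n = 5). Itga4 was at 1.97 ± 0.416 and 2.43 ± 1.27, and Itgae, the subunit of tissue-resident T cells that binds E-cadherin, at 0.868 ± 0.301 and 0.764 ± 0.300 (SD, n = 5). For Itgam, 66.3% of the 50-base stretches were shared with Gm49368, an overlapping same-strand gene with at most 1 read in any tumor. The level of Itgam is therefore less certain than that of its class. Of Itgax, 8.02% was shared with its neighbor Itgad.

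Across the 10 tumors, Itgb2 and its partners could be compared pair by pair. Itgb2 followed Itgal with r = 0.961 and rho = 0.939 (permutation test, adjusted p = 0.00371 and 0.00768), and r was 0.929 without E1 and NE1. Itgb2 followed Itgam with r = 0.928 and rho = 0.903 (permutation test, adjusted p = 0.00888 and 0.00869), and r was 0.706 without E1 and NE1. Itgb2 and Itgax gave r = 0.486 and rho = 0.455 (permutation test, adjusted p = 0.283 and 0.352), so no relation was shown there. For Itgb7, r was 0.172 with Itga4 and -0.258 with Itgae (permutation test, adjusted p = 0.735 and 0.599), and neither passed. The adjustment covered 53 relations, all computed on log2(CPM + 1) over both groups, since 5 tumors of 1 group are too few for a correlation.

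**Figure D4:**
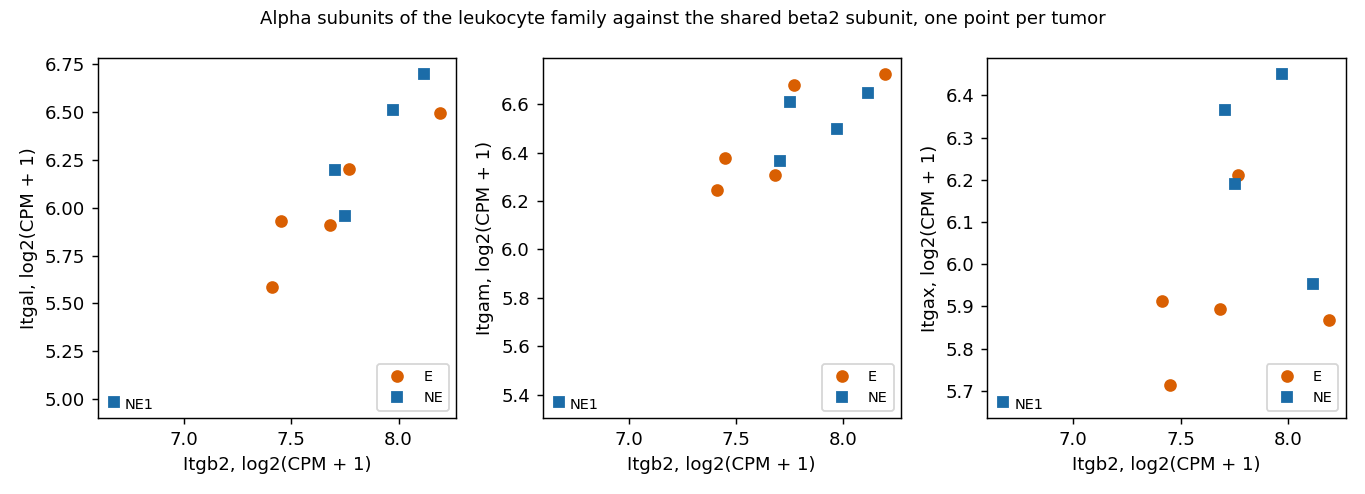
Itgal, Itgam and Itgax against Itgb2, each as log2(CPM + 1) with 1 point per tumor (circles, exercise; squares, non-exercise). Itgal and Itgam rise with Itgb2, with r of 0.961 and 0.928, while Itgax has r of 0.486, and NE1 lies at the low end of each panel.

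Itgb2, Itgam and Itgal also followed the score of a leukocyte marker list. The pan-leukocyte score followed Itgb2 with r = 0.918 and rho = 0.903 (permutation test, adjusted p = 0.00888 and 0.00869), and r was 0.664 without NE1 and NE4. The macrophage or monocyte score followed Itgam with r = 0.952 and rho = 0.855 (permutation test, adjusted p = 0.00495 and 0.0219), and r was 0.825 without E5 and NE1. The T cell score followed Itgal with r = 0.935 and rho = 0.939 (permutation test, adjusted p = 0.00371 and 0.00768), and r was 0.788 without NE1 and NE4. The neutrophil score and Itgam gave rho = 0.842 but r = 0.498 (permutation test, adjusted p = 0.0251 and 0.223), and the dendritic cell score and Itgax gave r = 0.626 and rho = 0.709 (permutation test, adjusted p = 0.128 and 0.109). The T cell score and Itgae gave r = 0.520 and rho = 0.321 (permutation test, adjusted p = 0.263 and 0.517), and r was -0.0894 without NE1 and NE4. Itgb7 and Itga4 were not compared with a score. Macrophage markers summed to 2345 to 3916 CPM in the exercise tumors and 1135 to 4017 CPM in the non-exercise tumors, and T cell markers to 82.2 to 117 and 71.6 to 129 CPM.

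Among the epithelial integrins, Itga3, a laminin receptor subunit, made up 62.4% of the summed FPKM. It was at 47.1, 43.6, 37.3, 33.9 and 33.6 FPKM in E1 to E5 and 45.5, 36.3, 39.9, 38.5 and 38.03 in NE1 to NE5, and the exercise tumors included both the highest and the lowest values. For Itga3 the log2 fold change was -0.05 ± 0.10 (SE). Itga6, the other laminin receptor subunit, was at 24.2, 17.4, 19.9, 16.4 and 19.9 FPKM in E1 to E5 and 17.5, 18.3, 20.9, 20.0 and 24.6 in NE1 to NE5, with a log2 fold change of -0.08 ± 0.12 (SE). The highest Itga6 value was that of NE5, the tumor with the high keratinocyte markers, and without NE5 the log2 fold change was -0.0022. Itga3 and Itga6 were both higher than Krt8, Krt18 and Epcam in every tumor. Itgb4, the hemidesmosome partner of Itga6, was at 1.12, 1.27, 1.03, 0.999 and 1.45 FPKM in E1 to E5 and 1.19, 1.16, 1.36, 1.47 and 1.52 in NE1 to NE5. E5 was close to the higher non-exercise tumors, and the log2 fold change was -0.23 ± 0.14 (SE, unadjusted p = 0.134 and FDR 0.897 by edgeR). Without NE5, the highest for Itgb4, it was -0.18 at an unadjusted p of 0.268. Itga6 exceeded Itgb4 17.0 ± 3.48-fold in the exercise group and 15.1 ± 0.994-fold in the non-exercise group on the FPKM scale (SD, n = 5), and 36.8 ± 7.56-fold and 32.8 ± 2.16-fold per coding length, and the pair gave r = 0.494 (permutation test, adjusted p = 0.276).

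Itga2, a collagen receptor subunit also made by platelets, was at 2.59, 2.36, 2.70, 2.17 and 2.56 FPKM in E1 to E5 and 1.40, 2.52, 2.36, 1.96 and 2.39 in NE1 to NE5. NE1 was the lowest and the other tumors overlapped, with a log2 fold change of 0.19 ± 0.16 (SE) that was 0.0066 without E5, NE1 and NE4. Itgb6, the partner of Itgav that epithelia make during repair, was at 0.245, 0.332, 0.0682, 0.152 and 0.178 FPKM in E1 to E5 and 0.146, 0.158, 0.198, 1.01 and 0.151 in NE1 to NE5. NE4 stood alone at the top, and the range of 14.7-fold was the widest of the members tested. Its log2 fold change was -0.83 ± 0.65 (SE), and it was 0.23 without NE4, so this tumor sets its sign.

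The laminins were led by the chains of the widespread basement membrane trimers. Lamc1, the gamma chain of most laminins, was at 79.0, 71.3, 76.1, 63.6 and 75.3 FPKM in E1 to E5 and 89.7, 69.1, 70.6, 57.3 and 72.3 in NE1 to NE5, so that the non-exercise tumors held both extremes. Lamb1, its usual beta partner, was at 64.3, 68.4, 80.9, 67.7 and 68.6 FPKM in E1 to E5 and 73.2, 69.4, 64.0, 49.7 and 70.0 in NE1 to NE5. E3 was the highest and NE4 the lowest. Lama5, the main alpha chain, was at 25.5, 25.6, 27.1, 22.1 and 20.9 FPKM in E1 to E5 and 30.4, 25.03, 24.7, 22.2 and 26.4 in NE1 to NE5. The groups overlapped for all of these, and the log2 fold changes were -0.0027 ± 0.099 for Lamc1, 0.07 ± 0.10 for Lamb1 and -0.11 ± 0.09 for Lama5 (SE).

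The other laminin chains described here were lower. Lamb3, a beta chain of epithelial laminin, was at 0.485 ± 0.191 FPKM in the exercise group and 0.384 ± 0.0706 in the non-exercise group, and Lama3, an alpha chain of epithelial laminin, at 0.107 ± 0.0320 and 0.116 ± 0.0627 (SD, n = 5). Across tumors the pair gave r = 0.414 and rho = 0.539 (permutation test, adjusted p = 0.366 and 0.285). Lama3 was highest in NE5, at 0.209 FPKM. Lamc3, the gamma chain of some neural and vascular laminins, was at 0.191, 0.0969, 0.119, 0.168 and 0.164 FPKM in E1 to E5 and 0.242, 0.123, 0.246, 0.150 and 0.230 in NE1 to NE5. The groups overlapped, and the log2 fold change was -0.45 ± 0.27 (SE) on 11 to 34 reads per tumor.

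Lama2, the alpha chain of muscle basement membrane, was at 0.382, 0.585, 0.579, 0.627 and 1.29 FPKM in E1 to E5 and 0.201, 0.518, 0.543, 1.34 and 0.386 in NE1 to NE5. NE4 and E5 were high and NE1 was low, a range of 6.67-fold, and the log2 fold change was 0.16 ± 0.49 (SE). For Lama2 it was 0.73 without NE4, -0.19 without E5 and -0.060 without NE1. Its relation to the skeletal muscle score gave r = 0.704 and rho = 0.406 (permutation test, adjusted p = 0.0926 and 0.411), and r was -0.0188 without NE1 and NE4. Lama4, the alpha chain of blood vessels, was at 3.49 ± 1.62 FPKM in the exercise group and 2.70 ± 1.03 in the non-exercise group (SD, n = 5), with E5 the highest at 6.28. Lama1, an alpha chain of early embryos, was at 0.367 ± 0.229 and 0.257 ± 0.0984, and Lamb2, the beta chain of synaptic and kidney basement membranes, at 10.3 ± 1.21 and 10.2 ± 1.56 (SD, n = 5).

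Subunits that assemble with each other were not present at equal levels. Itgb1 exceeded the sum of its 12 alpha partners 2.59 ± 0.415-fold in the exercise group and 2.56 ± 0.330-fold in the non-exercise group, and Itgb2 exceeded its partners 1.72 ± 0.221-fold and 1.62 ± 0.169-fold (SD, n = 5). Itgam, whose level is less certain because of an overlapping gene, made up 41.3% of the partner sum of Itgb2. The excess of Itgb2 is therefore uncertain too. As means of the ratios in single tumors, Itgb7 exceeded Itga4 and Itgae together 27.9 ± 9.67-fold and 35.4 ± 27.1-fold (SD, n = 5). The highest ratio in a tumor was 83.5, and the partner sum was lowest in NE1, at 0.978 FPKM. The size of this ratio depends on the length used, because the table counts 13978 bases of exon for Itga4, most of it outside the 3096 coding bases. Per coding length the ratios were 8.97 ± 2.84 and 11.2 ± 8.90 for Itgb7 (SD, n = 5), so that the excess stayed above 1 in every tumor with a range of 4.46 to 26.9. The gamma chains of the laminins exceeded the alpha chains 2.57 ± 0.147-fold and 2.48 ± 0.256-fold, while beta and gamma chains were close to equal at 1.09 ± 0.102 and 1.04 ± 0.0746 (SD, n = 5). Per coding length the means of the 2 groups were 1.88 and 1.84 for Itgb1, 1.503 and 1.42 for Itgb2 and 3.74 and 3.74 for the gamma over the alpha chains.

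**Figure D5:**
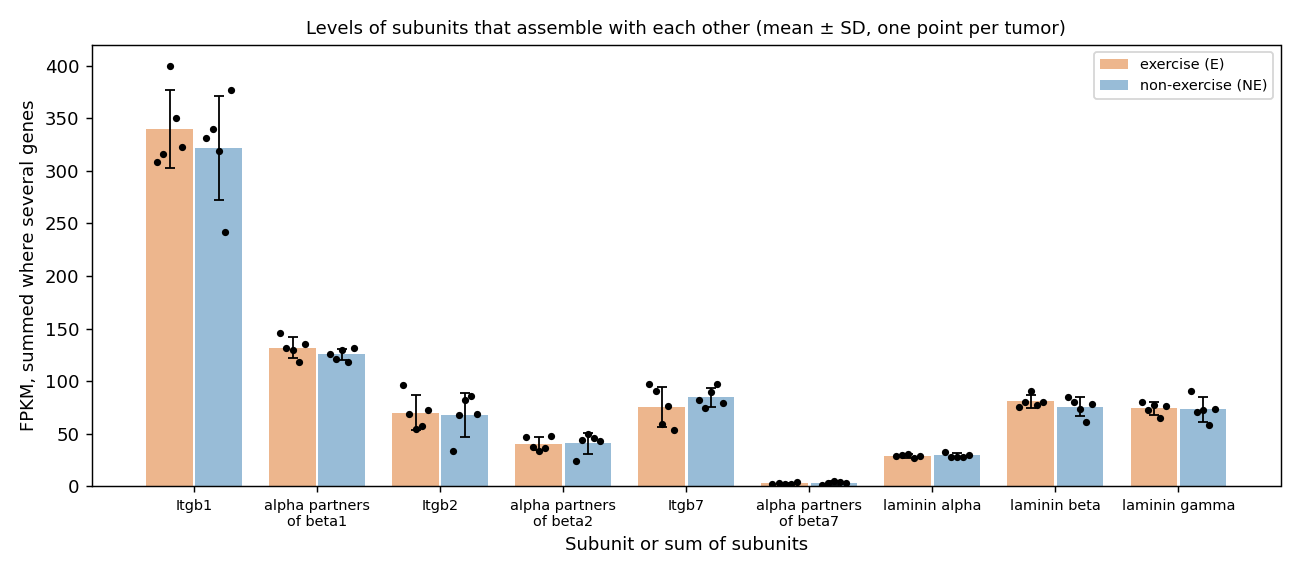
FPKM of Itgb1, Itgb2 and Itgb7 beside the summed FPKM of their alpha partners, and of the laminin alpha, beta and gamma chains, as mean ± SD bars from 0 with 1 point per tumor (5 exercise, 5 non-exercise). The alpha partners of Itgb7 lie near the axis, whereas laminin beta and gamma chains are at like levels. Itgb7 averages 75.4 and 84.6 FPKM and its partners sum to 2.84 and 3.20 FPKM, exercise given before non-exercise.

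Itgav and its beta partners were the receptor group in which the higher exercise values of Itgb5 lay. The summed FPKM of Itgb3, Itgb5, Itgb6 and Itgb8 was 75.7 ± 4.94 in the exercise group and 58.6 ± 9.72 in the non-exercise group (SD, n = 5), and Itgb5 made up 90.2% of it. Itgb5 followed Itgav across tumors with r = 0.822 and rho = 0.818 (permutation test, adjusted p = 0.00888 and 0.0332), but r was 0.510 without NE3 and NE4, the tumors with the lowest Itgb5, and the relation therefore rests in part on those tumors. Both groups were pooled, and Itgav was higher in the exercise tumor in 21 of 25 pairings. A shared difference between the groups and a relation within them cannot be told apart here. Itgb3 and Itgav gave rho = 0.855 and r = 0.696 (permutation test, adjusted p = 0.0219 and 0.073), and r was 0.345 without NE3 and NE4. Itgb6 and Itgav gave r = -0.935 and rho = -0.721 (permutation test, adjusted p = 0.00888 and 0.104), and r was -0.868 without E2 and NE4. The rank correlation of Itgb6 and Itgav did not pass, and Itgb6 rests on 10 to 164 reads per tumor.

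The other genes of the pathway were 20 adaptors of the cytoplasmic face, 11 ligands, 8 basement membrane partners and 4 hemidesmosome genes, 43 in all. Of the 39 that passed the filter, 1 was at an unadjusted p of at most 0.05, or 2.56% against 4.86% of all genes. This was Thbs1, the matrix ligand thrombospondin, at 108 ± 27.4 FPKM in the exercise group and 74.2 ± 24.3 in the non-exercise group (SD, n = 5), with a log2 fold change of 0.52 ± 0.22 (SE, unadjusted p = 0.0396 and FDR 0.897 by edgeR). Thbs1 was at 157 FPKM in E5 against 95.1 to 97.2 in E1 to E4, while NE4 was at 42.1 and NE1 at 109. Its fold change without E5, NE1 and NE4 is not given. The next 4 by p were Tns3, an adaptor of the tensin family, at a log2 fold change of 0.12, the basement membrane proteoglycan Agrn at 0.20, the matrix ligand Tnc at 0.78 and the adaptor Lims2 at -0.64, with unadjusted p of 0.0548, 0.0781, 0.0876 and 0.134 by edgeR's quasi-likelihood test. None of the 18 adaptors, 8 basement membrane partners and 3 hemidesmosome genes that passed the filter was at the unadjusted threshold. The adaptors Ilk, at 0.0159 to 0.0969 FPKM, and Fermt1, the ligand Madcam1 and the hemidesmosome gene Col17a1 did not pass the filter and were not tested. Whether reads of Ilk were lost in the counting was not tested, so its value is not read as absence of its mRNA.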

How the data were processed

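Total RNA of 10 tumors was sequenced as paired-end TruSeq libraries. Per the study's methods, the authors aligned reads with Hisat2 and quantified genes with Stringtie. Those methods name a rat assembly, whereas the deposited identifiers are mouse Ensembl genes. The deposited values were counts per gene, not normalized, and FPKM, which the authors made from the same counts, the gene length and the total count of the tumor (largest relative deviation 3.77e-14). Of 21851 genes matched to GENCODE (GRCm38), 514 had the same start and end as in the table, so the build of the table was taken as unnamed and coordinates were read from GENCODE or RefSeq. Of the rows, 51 had no gene name.

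Counts were tested in edgeR 4.0.16 (R 4.3.3) with TMM scaling, the default filter on low counts and the quasi-likelihood test over the 10 tumors without covariates, with Benjamini-Hochberg adjustment over 13517 genes. Checks of the script on simulated data recovered the planted changes in part. DESeq2 1.42.0, limma 3.58.1, other scalings and filters, pseudocounts of 1 and 0.1 on FPKM, covariates, a replicate block and leaving out each tumor were alternatives. Correlations used 100000 permutations (scipy 1.17.1). The sources give 1 mouse per tumor, so p-values cover the spread between mice. Counts limit the precision of low genes: 3 reads equal 0.130 to 0.199 CPM.

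The members and the lists of classes, pathway genes and markers were chosen with earlier results of these data known. Values in every tumor were given for members at an unadjusted p of at most 0.05, the 3 with the highest FPKM and the 2 with the smallest p of each class, and the 3 with the widest range. Motifs, the coding-length ratios, Vim, Krt19 and Cdh1 were added after values had been seen. The values of 1 member are not reported here.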

Additional observations from a re-analysis of the deposited data

Results flagged for a closer look

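In each group the value farthest from the other 4 tumors was compared with Dixon's limit for 5 values. Of 82 groups tested 8 were past the limit, where chance gives about 1 in 20, or 4.1. Each was a tumor far from the others of its group. In the exercise group Lamb1 was at 80.9 FPKM in E3 against 64.3 to 68.6 in the others. E5 was high for 3 laminin chains, with Lama4 at 6.28 against 2.27 to 3.42, Lama2 at 1.29 against 0.382 to 0.627 and Lamb3 at 0.824 against 0.360 to 0.424 FPKM. In the non-exercise group NE4 was low for Itga5 at 23.1 against 27.2 to 28.1 FPKM, and high for Itga7 at 4.21 against 1.85 to 2.52 and for Itgb6 at 1.01 against 0.146 to 0.198. NE1 was low for Itgam at 8.20 against 16.1 to 18.9 FPKM. E5 also had the highest sum of fibroblast markers at 15363 CPM and NE4 the highest sum of skeletal muscle markers at 30307 CPM. NE1 had the lowest sum of macrophage markers at 1135 CPM, and the relation of Itgam to that score is given above. The skeletal muscle score and Itga7 gave r = 0.707 and rho = 0.733 (permutation test, adjusted p = 0.11 and 0.0969). Without NE1 and NE4, r was 0.516. The endothelial score and Lama4 gave r = 0.755 and rho = 0.503 (permutation test, adjusted p = 0.073 and 0.305). Without E5 and NE4, r was -0.0194. Whether these cells account for the outlying values was not tested.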

How the results depend on the processing

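In no setting did a member or any other gene pass both thresholds, a fold change of 2 and the FDR of 0.05. Of the members at an unadjusted p of at most 0.05, Itgb5 stayed there in 21 of 22 settings, Itga2b in 19 and Itga5 in 16, each with an unchanged sign, and the exception of Itgb5 was the total count as a covariate. The cause of the changes below was not tested. Genes at that threshold numbered 657, and 1800 with limma-voom, 122 with the total count and 1059 with the muscle score as a covariate, and 372 (without E5) to 1350 (without NE1) when 1 tumor was left out, with 400 without NE3. Members at that threshold numbered 4, and 1 with the total count (Itgax), 7 with the muscle score, and 3 to 8 when 1 tumor was left out, with 8 without NE1. Without TMM the split of genes higher and lower at that threshold was 472 and 160, against 347 and 310.

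Leaving out 1 tumor gave medians of 0.13 to 0.20 for matrix-binding integrins, -0.21 to 0.06 for leukocyte integrins, -0.16 to -0.026 for epithelial integrins and -0.038 to 0.044 for laminin chains, and without E5, NE1 and NE4 the epithelial median was 0.0066. With the total count as a covariate the matrix-binding median was 0.052 and the laminin median -0.18, and log2 fold changes that turned sign were -0.049 for Itga11, 0.12 for Itga3, 0.048 for Itgb7, -0.35 for Lama2, 0.013 for Lama5 and 0.041 for Lamc1. With limma-voom they were -0.015 for Itgam, -0.049 for Itgb1, -0.10 for Itgb2 and 0.10 for Itgb6. Without E5, NE1 and NE4 they were 0.073 for Itga3, -0.060 for Itgam, -0.018 for Itgb1, -0.085 for Itgb2, 0.21 for Itgb6 and 0.023 for Lamc1. Lamc1, at -0.0027, was also 0.024 without TMM, 0.0348 and 0.0353 on log2(FPKM) with a pseudocount of 1 and 0.1, 0.0035 with the replicate block and 0.021 with the muscle score. Leaving out 1 tumor gave ranges across 0 of -0.12 to 0.0046 for Itga3, -0.040 to 0.21 for Itgam, -0.025 to 0.12 for Itgb1, -0.15 to 0.14 for Itgb2, -1.11 to 0.23 for Itgb6, -0.19 to 0.73 for Lama2 and -0.063 to 0.091 for Lamc1.

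The study speaks of 5 matched pairs, but the sample labels do not say which tumors form a pair. Deviations of same-numbered tumors correlated at 0.0355, -0.156, -0.0949, -0.325 and 0.316, and only 1 of 5 correlated best with its own number. Such correlations cannot show how the tumors were paired, so the block by replicate number is given as an alternative. The block gave 714 genes and 5 members at the unadjusted threshold, among them Itga11 at a log2 fold change of 0.93 (unadjusted p = 0.0127 by edgeR). With the block Itga5 was at 0.20 (unadjusted p = 0.00985) and Itgb5 at 0.37 (unadjusted p = 0.0137). Per coding length, a scale chosen after seeing the data, the ratios of partners moved, that of Itgb7 the most, without crossing 1. Low members such as Itgb6, Lamc3 and Lama3 rest on as few as 10 to 14 reads in a tumor.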
